A study of Mus musculus with 17 samples.

Results

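The mouse urea cycle and periportal amino acid enzymes were described as 10 genes taken by symbol from the deposited tables. Of these 10 genes, 10 were found among the 49315 genes of the liver tables and 10 among the 15632 genes of the hepatocyte tables. They were Nags, Cps1, Otc and Slc25a15, whose products act in the mitochondrion, Ass1, Asl and Arg1, whose products act in the cytosol, and Hal, Sds and Gls2, whose products release ammonia from amino acids. In the liver experiment, SMSrKO and WT mice had a high-fat diet and fructose-containing drinking water for 16 weeks, with 4 libraries each. In the hepatocyte experiment, cells were freshly isolated by collagenase from mice of 2 months, with 3 Sms1/Sms2/Smsr-tKO (tKO), 3 Sms1/Sms2-dKO (dKO) and 3 WT libraries. SMSr, SMS1 and SMS2 are the products of Samd8, Sgms1 and Sgms2, and SMS1 and SMS2 make sphingomyelin. The labels name no allele, strain, sex or Cre driver, and they give no age for the liver mice and no diet for the hepatocyte mice. Whether each library came from a separate animal is not stated, and the p-values therefore speak of the spread among libraries, which may be technical.

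The urea cycle turns toxic ammonia into urea and runs in full in hepatocytes, mostly those around the portal vein. N-acetylglutamate, made by the Nags product, switches on carbamoyl phosphate synthetase, the Cps1 product, and ornithine transcarbamylase, from Otc, then makes citrulline inside the mitochondrion. Argininosuccinate synthase and lyase, from Ass1 and Asl, convert citrulline to arginine in the cytosol, arginase from Arg1 splits off urea, and the carrier from Slc25a15 returns ornithine to the mitochondrion. Histidine ammonia-lyase (Hal), serine dehydratase (Sds) and liver glutaminase (Gls2) start the breakdown of their amino acids in the same periportal cells. The genes of this pathway are known to respond to glucagon, glucocorticoids and fasting.

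Promoter windows from 250 bases before to 50 bases after the start were available for 5 of the 10 genes, from RefSeq on GRCm38.p6. They covered Otc, Ass1, Nags, Slc25a15 and Hal, and the first window of each of 4 genes is printed because these genes behaved differently in the hepatocyte libraries. Capitals mark matches, on either strand, to C/EBP (TTNNGNAA), the cAMP response element core (TGACG), HNF4 (CAAAGTNCA) and the glucocorticoid receptor (ACANNNTGT), and all other letters are in lower case.
Nags, chr11:102145263-102145562, plus strand: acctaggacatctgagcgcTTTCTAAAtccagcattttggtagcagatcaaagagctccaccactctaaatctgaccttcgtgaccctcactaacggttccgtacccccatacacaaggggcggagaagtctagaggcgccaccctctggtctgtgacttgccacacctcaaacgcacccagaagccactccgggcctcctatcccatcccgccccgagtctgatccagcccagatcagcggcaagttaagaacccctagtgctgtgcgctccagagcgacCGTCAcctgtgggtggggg
Otc, chrX:10252055-10252354, plus strand: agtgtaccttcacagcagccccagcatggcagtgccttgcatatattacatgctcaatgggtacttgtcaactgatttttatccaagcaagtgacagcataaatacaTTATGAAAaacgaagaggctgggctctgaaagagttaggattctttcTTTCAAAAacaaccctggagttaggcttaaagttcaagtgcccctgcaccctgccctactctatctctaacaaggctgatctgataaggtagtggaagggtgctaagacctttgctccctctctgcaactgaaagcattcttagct
Ass1, chr2:31470020-31470319, plus strand: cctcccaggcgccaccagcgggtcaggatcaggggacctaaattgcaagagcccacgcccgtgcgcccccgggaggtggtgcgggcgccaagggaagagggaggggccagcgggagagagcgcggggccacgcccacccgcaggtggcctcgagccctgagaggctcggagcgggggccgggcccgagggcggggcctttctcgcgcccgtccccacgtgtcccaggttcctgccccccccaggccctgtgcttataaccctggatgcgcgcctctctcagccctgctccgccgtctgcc
Hal, chr10:93488518-93488817, plus strand: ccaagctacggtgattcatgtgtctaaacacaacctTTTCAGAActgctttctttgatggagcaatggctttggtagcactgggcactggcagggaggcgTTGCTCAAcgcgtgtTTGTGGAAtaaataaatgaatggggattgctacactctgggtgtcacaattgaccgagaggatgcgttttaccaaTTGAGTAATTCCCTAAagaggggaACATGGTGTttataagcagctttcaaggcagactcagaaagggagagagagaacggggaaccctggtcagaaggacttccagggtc
Hal held 5 C/EBP matches and 1 glucocorticoid receptor match, Otc held 2 C/EBP matches, and Nags held 1 C/EBP match and 1 cAMP response element core. The windows of Ass1 and Slc25a15 held none of these motifs, and Ass1 had a GC content of 74.0%, against 44.3% for Otc. Among 32851 promoter windows of 300 bases, 40.7% held the C/EBP letters, 20.8% the cAMP core, 1.41% the HNF4 letters and 6.85% the glucocorticoid receptor letters. A match describes letters only, and binding was not measured. Cps1, Asl, Arg1, Sds and Gls2 are named here without sequence.

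Each liver library held between 24391627 and 47351126 counts, and each hepatocyte library between 9221488 and 9665309 expected counts. The extraction text names sWAT for SMSrKO mice, although liver is the labelled tissue. The summed level of 11 hepatocyte markers was 86756 to 99433 CPM (counts scaled to the library total) in SMSrKO and 74302 to 82821 CPM in WT. The summed level of 7 adipocyte markers was 18.4 to 26.4 CPM in SMSrKO, against 17 CPM in WT 1 and 64.1 to 116 CPM in the other WT libraries, with Lep at 0 in both groups. Fabp4, a fatty acid binding protein gene of this list, was lower in SMSrKO (edgeR adjusted p = 0.0434, and 0.0117 without WT 1). The summed level of 7 erythroid markers was 38.7 to 47.2 CPM in SMSrKO, against 44.3 CPM in WT 1 and 95.3 to 161 CPM in the other WT libraries. Of the 6 erythroid markers tested, edgeR called 0 with all libraries. An unadjusted edgeR p under 0.05 was found for 5 of them, beside 2075 of all 15820 genes. Without WT 1 edgeR called 3 lower, and DESeq2 called 5 lower of 7 with all libraries. Over all genes, these fits called 67 of 15988 and 233 of 29544 lower. The WT 1 liver library stood apart on the first principal component, at 48.7, against −6.83 to −29.4 in SMSrKO and 9.10 to 15.3 in the other WT libraries. Its acute phase transcripts summed to 51423 CPM, against 19517 to 22848 CPM in SMSrKO and 20198 to 25549 CPM in the other WT libraries, so results are given with and without it. Of the targeted genes, Sgms2 alone was lower in knockout hepatocytes than in WT, and none was lower in SMSrKO liver. Samd8 averaged 15.4 ± 1.70 TPM in SMSrKO and 12.6 ± 2.56 TPM in WT livers (SD, n = 4 each), and 14.7 ± 0.345 FPKM in tKO, 11.7 ± 0.830 FPKM in dKO and 9.95 ± 0.535 FPKM in WT (SD, n = 3 each). Sgms2 averaged 26.4 ± 1.12 FPKM in tKO, 26.0 ± 2.78 FPKM in dKO and 31.6 ± 1.37 FPKM in WT. Sgms1, also targeted by label, was higher in dKO than in WT, by a log2 fold change of 0.86 ± 0.0628 (SE, edgeR adjusted p = 5.65e-21). In tKO against WT, Sgms1 was higher by 0.24 ± 0.0662 and Samd8 by 0.53 ± 0.0575 (edgeR adjusted p = 0.00178 and 5.44e-13). With the dispersion of the liver fit, only the Sgms1 call in dKO stood (edgeR adjusted p = 0.00625). RNA levels thus did not show the loss of Samd8 or Sgms1 that the labels name. Groups are called by their labels, and bulk RNA cannot tell fewer cells of a type from less RNA per cell.

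In liver, transcripts of the urea cycle spanned a wide range of levels per length, given in TPM (transcript abundance scaled for gene length and library). In SMSrKO livers Ass1 was highest at 1790 ± 201 TPM, followed by Arg1 at 1689 ± 135 TPM and Cps1 at 1445 ± 38.9 TPM (SD, n = 4). The ranges of Ass1 and Arg1 overlapped, and Arg1 and Cps1 did not. The remaining genes lay well below, with Sds at 266 ± 119, Asl at 240 ± 26.3, Gls2 at 229 ± 25.1, Otc at 164 ± 26.2 and Hal at 151 ± 30.4 TPM, each overlapping the next in that order. Slc25a15 at 98.5 ± 14.0 TPM and Nags at 53.6 ± 4.38 TPM, the gene of the activator's enzyme, came last without overlap between them, and Ass1 was 33.4 times the level of Nags. In WT livers Arg1 led at 1434 ± 404 TPM, Ass1 and Cps1 followed, and Nags was again last at 49.7 ± 11.2 TPM. With WT 1 included, the ranges of these 3 genes overlapped. Without WT 1, Arg1 at 1234 ± 75.2 TPM stood above Ass1 at 976 ± 113 TPM without overlap (SD, n = 3).

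No gene of the 10 passed the test between SMSrKO and WT livers when all 8 libraries were used. In edgeR's quasi-likelihood test with Benjamini-Hochberg adjustment over 15820 genes, 0 of 10 were higher and 0 of 10 lower, where 0.12% of all genes were called higher and 0.114% lower. DESeq2 called 0 of 9, giving no p for Sds, where it called 1.54% of 29544 genes. These included genes with low counts that were left out in edgeR, so the shares of the 2 tools are not alike. Of the 10, 2 genes, Hal and Gls2, had an unadjusted p under 0.05 in both tools. Over all genes this held for 2075 of 15820 in edgeR and 2376 of 29544 in DESeq2. The median log2 fold change of the 10 was 0.21, beside −0.01 over all genes tested, and 8 of 10 were positive. Leaving out WT 1 changed this to 3 of 10 called higher, Cps1, Ass1 and Gls2, where 0.263% of genes were called higher, with 10 of 10 positive and a median of 0.62. The summed hepatocyte markers were higher in all SMSrKO than in all WT libraries, WT 1 included (86756 to 99433 against 74302 to 82821 CPM). The summed erythroid and adipocyte markers separated the same WT libraries from SMSrKO once WT 1 was left out. The part of these 3 marker lists in this result was not tested. The SMSrKO libraries lay wholly above the other WT libraries for 7 of 10 genes, where 6.28% of all genes did so, and for 0 of 10 with WT 1 included, where 3.79% did so.

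Cps1 (chromosome 1, 67123026 to 67231259, GRCm38, plus strand), the gene of the first committed enzyme, showed how far 1 library set this result. It had 1424, 1452, 1496 and 1407 TPM in SMSrKO livers, against 2182, 861, 880 and 796 TPM in WT livers. All 4 SMSrKO values lay within a narrow band, above WT 2 to 4 and below WT 1. The log2 fold change was 0.32 ± 0.338 (SE, edgeR adjusted p = 0.722), and without WT 1 it was 0.85 ± 0.111 (edgeR adjusted p = 0.0128). The mitochondrial partners each had their own pattern. Otc (chromosome X, 10252305 to 10321024) had 169, 199, 144 and 144 TPM in SMSrKO livers, against 139, 164, 180 and 156 TPM in WT livers. The groups overlapped fully, WT 1 was the lowest WT library for this gene alone, and the log2 fold change was 0.10 ± 0.146 (edgeR adjusted p = 0.806). Nags (chromosome 11, 102145513 to 102149477) had 55.9, 54.4, 47.2 and 57.0 TPM in SMSrKO livers, against 64.4, 38.6, 51.7 and 44.1 TPM in WT livers, an overlap that remained without WT 1. Its exons overlap an antisense transcript, Gm11586, which averaged 6.18 TPM in SMSrKO and 2.85 TPM in WT livers, and no strand setting is given. Slc25a15 (chromosome 8, 22375551 to 22398597, minus strand) had 92.2, 114.5, 105 and 82.6 TPM in SMSrKO livers, against 188, 78.7, 76.5 and 66.3 TPM in WT livers. Its WT 1 value exceeded every other library, and the log2 fold change moved between −0.03 ± 0.353 with WT 1 and 0.49 ± 0.133 without it (edgeR adjusted p = 0.981 and 0.131).

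Of the cytosolic steps, Ass1 (chromosome 2, 31470207 to 31520672) had 1549, 2015, 1719 and 1877 TPM in SMSrKO livers, against 2476, 983, 1085 and 860 TPM in WT livers. As for Cps1, WT 1 was above and the other WT libraries below all 4 SMSrKO libraries. Its log2 fold change was 0.43 ± 0.342 (edgeR adjusted p = 0.628), and without WT 1 0.95 ± 0.138 (edgeR adjusted p = 0.019). Asl (chromosome 5, 130011258 to 130029247, minus strand) had 243, 269, 205 and 241 TPM in SMSrKO livers, against 402, 145, 189 and 177 TPM in WT livers, with the same placing of WT 1. Arg1 (chromosome 10, 24915208 to 24927470, minus strand) had 1637, 1889, 1633 and 1597 TPM in SMSrKO livers, against 2033, 1148, 1289 and 1264 TPM in WT livers. Again WT 1 topped all libraries. Neither gene passed the test without WT 1, with log2 fold changes of 0.57 ± 0.145 for Asl and 0.53 ± 0.117 for Arg1 (edgeR adjusted p = 0.117 and 0.0803).

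The ammonia-releasing enzymes held the largest and the most scattered differences. Gls2 (chromosome 10, 128194457 to 128210004), the liver glutaminase gene, had 233, 258, 197 and 227 TPM in SMSrKO livers, against 222.5, 115, 129 and 84.5 TPM in WT livers. WT 1 lay inside the SMSrKO range and the other WT libraries below it. The log2 fold change was 0.76 ± 0.294 (edgeR adjusted p = 0.321), and 1.13 ± 0.174 without WT 1 (edgeR adjusted p = 0.025). Hal (chromosome 10, 93488768 to 93519304) had 149, 195, 135 and 127 TPM in SMSrKO livers, against 149, 82.3, 104 and 70.6 TPM in WT livers. WT 1 again lay inside the SMSrKO range, and neither fit called the gene, at 0.61 ± 0.269 with WT 1 and 0.89 ± 0.205 without it (edgeR adjusted p = 0.377 and 0.0979). Sds (chromosome 5, 120476526 to 120483932) had 198, 443, 229 and 194 TPM in SMSrKO livers, against 803, 148, 193 and 189 TPM in WT livers. A single library in each group, SMSrKO 6 and WT 1, stood far above its group, and the coefficient of variation was 44.7% in SMSrKO and 94.2% in WT. The log2 fold change of Sds was −0.31 ± 0.622 with WT 1 and 0.67 ± 0.322 without it (edgeR adjusted p = 0.862 and 0.406). With no strand setting given, genes on the other strand limit the Sds and Gls2 values. Sds exons overlap Gm15690 (75.6 TPM in SMSrKO and 85.9 TPM in WT livers) and Plbd2 (41.3 and 40.6 TPM). Gls2 exons overlap Spryd4 (31.7 and 36.3 TPM).

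**Figure D1:**
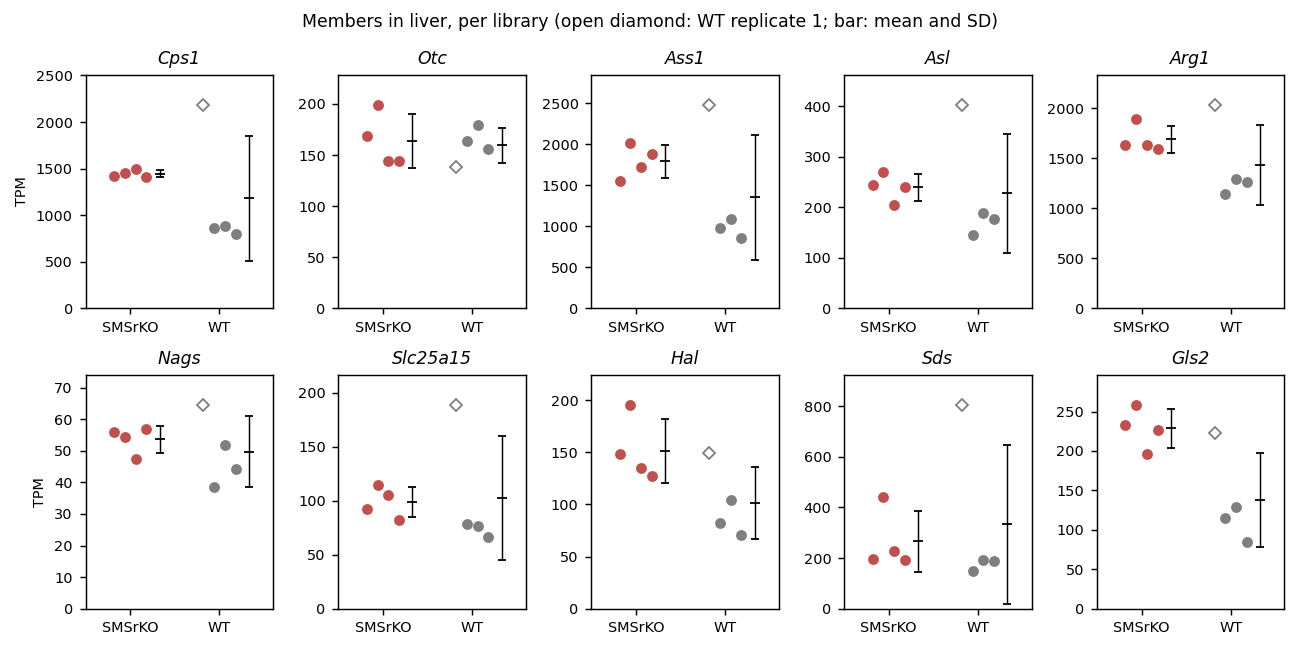
TPM of the 10 genes in each liver library, SMSrKO left and WT right, with the mean and SD of each group beside the points and WT 1 as an open diamond. WT 1 is the highest library for Cps1, Ass1, Asl, Arg1, Nags, Slc25a15 and Sds, and the lowest WT library for Otc.

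The 10 genes together took 0.851%, 0.959%, 0.849% and 0.861% of all counts in the SMSrKO libraries, against 1.3%, 0.542%, 0.592% and 0.516% in the WT libraries. The summed share thus placed WT 1 above and the other WT libraries below SMSrKO. The summed level of 16 other periportal markers was 9939 to 11879 CPM in SMSrKO and 9741 to 12851 CPM in WT, with WT 1 highest. The summed level of 16 pericentral markers was 16738 to 19421 CPM in SMSrKO and 10421 to 17249 CPM in WT, with WT 1 lowest. In edgeR, none of the periportal and pericentral markers passed the test, with or without WT 1. With all libraries, 2 periportal and 4 pericentral markers had an unadjusted edgeR p under 0.05, beside 2075 of all 15820 genes. DESeq2 called 1 higher and 1 lower in each of these 2 lists, beside 221 higher and 233 lower of all 29544 genes. The part of the WT 1 acute phase level in the results was not tested.

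**Figure D2:**
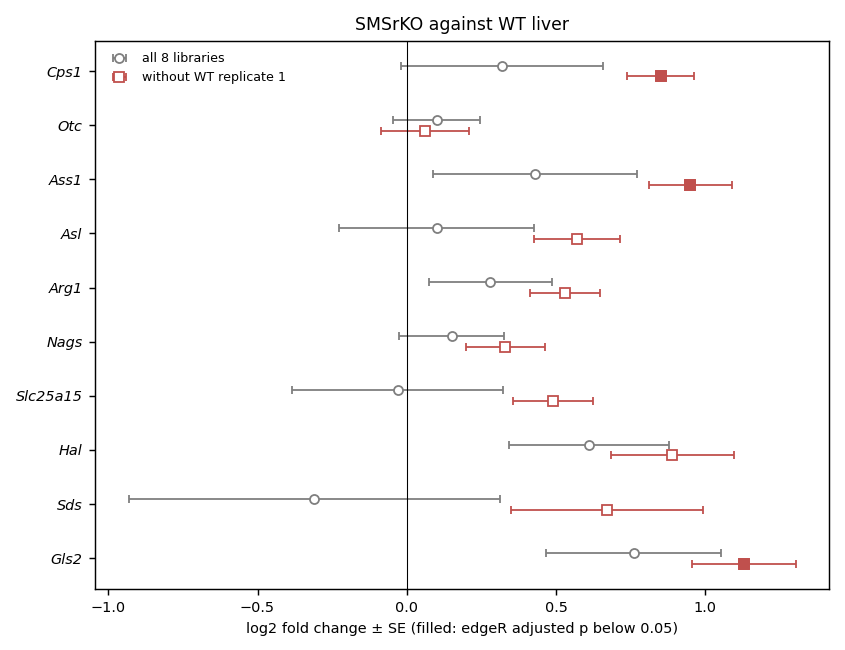
log2 fold change of SMSrKO against WT liver for the 10 genes with SE bars, with all 8 libraries (circles) and without WT 1 (squares). Filled symbols passed the test, which holds for Cps1 (0.85), Ass1 (0.95) and Gls2 (1.13) without WT 1 and for no gene with all libraries.

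In hepatocytes the libraries were far closer to each other, with a common biological coefficient of variation of 3.52%, against 20.3% in liver. Levels are given in FPKM (fragments scaled for gene length and library) and were not tested against liver. Ass1 was the highest of the 10 genes in each group, at 660 ± 32.4 FPKM in tKO, 614 ± 22.8 FPKM in dKO and 700 ± 44.2 FPKM in WT (SD, n = 3 each). Cps1 came next at 94.3 ± 7.27 FPKM in tKO, 92.5 ± 6.63 FPKM in dKO and 95.7 ± 4.95 FPKM in WT, so that Ass1 exceeded Cps1 7 times in tKO, 6.64 times in dKO and 7.31 times in WT. Arg1, Asl, Gls2 and Otc followed in that order in all 3 groups, with neighbours overlapping between Gls2 and Otc in tKO and between Cps1 and Arg1 in dKO. Nags was seventh in tKO and dKO and eighth in WT, where Sds preceded it without overlap. Hal and Slc25a15 were last, overlapping each other in tKO and dKO and apart in WT. The 10 genes took 0.197% to 0.212% of counts in tKO, 0.196% to 0.214% in dKO and 0.209% to 0.227% in WT.

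In tKO hepatocytes, 3 of the 10 genes rose against WT and 5 fell. Nags, Otc and Slc25a15 were higher, where edgeR called 25.6% of 11471 genes higher, and Gls2, Asl, Sds, Hal and Ass1 were lower, where it called 21.8% lower. The count of 8 of 10 stands beside 47.4% of all genes called in either direction. In dKO hepatocytes only Nags rose and only Ass1 fell against WT, where 24% of all genes were called higher and 20% lower. Between tKO and dKO, Otc was higher and Gls2, Asl, Hal, Nags and Sds were lower, where 14.3% and 15.2% were called. The contrasts share libraries with each other, so each is given by its own values. DESeq2 called 7 of 10 in tKO against WT, 2 of 10 in dKO against WT and 5 of 10 in tKO against dKO. In these contrasts it called 28.5%, 26.3% and 14.7% of 15619 genes. These included genes with low counts that were left out in edgeR, so the shares of the 2 tools are not alike. When the liver dispersion replaced that of the hepatocyte libraries, 0 of 10 genes were called in any of these contrasts. The share of all genes then called was 10.6% in tKO against WT, 9.20% in dKO against WT and 2.84% in tKO against dKO. By direction, 877 were higher and 344 lower of 11471 genes in tKO against WT, and 869 and 186 in dKO against WT. The liver dispersion was the common value of the liver fit, WT 1 included, applied to every gene. Between pairs of WT liver libraries, the chi-square per degree of freedom was 168 to 185 with WT 1 and 26.1 to 56.0 without it. Between pairs of hepatocyte libraries of a group it was 1.88 to 2.76 in tKO, 1.65 to 1.92 in dKO and 1.56 to 1.83 in WT. A liver dispersion estimated without WT 1 was not tested on the hepatocyte libraries.

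Nags had the largest rise of the 10 genes in both knockouts. It had 18.9, 20.7 and 19.8 FPKM in tKO, 22.7, 25.6 and 23.1 FPKM in dKO, and 14.7, 14.6 and 16.6 FPKM in WT. The 3 groups did not overlap, with dKO highest. Its log2 fold change was 0.34 ± 0.0772 in tKO against WT and 0.63 ± 0.0753 in dKO against WT (edgeR adjusted p = 0.000143 and 2.07e-11). Against dKO, tKO was lower by −0.29 ± 0.0718 (edgeR adjusted p = 0.000784). Nags exons overlap an antisense transcript, Gm11586, and no strand setting of the counts is given, so its value is uncertain to that extent.

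Otc, the ornithine transcarbamylase gene, had 38.4, 38.8 and 39.0 FPKM in tKO, 32.2, 34.8 and 33.1 FPKM in dKO, and 34.4, 33.9 and 33.4 FPKM in WT. Every tKO library lay above every dKO and WT library, which overlapped. The log2 fold change was 0.16 ± 0.0558 in tKO against WT and 0.19 ± 0.0559 in tKO against dKO (edgeR adjusted p = 0.0122 and 0.00585), and the first was not called without WT 3 (edgeR adjusted p = 0.0539). Slc25a15, the ornithine carrier gene, had 10.01, 9.47 and 11.1 FPKM in tKO, 9.81, 10.8 and 9.11 FPKM in dKO, and 8.61, 8.87 and 8.39 FPKM in WT. Both knockout groups lay above WT and overlapped each other. It passed in tKO against WT at 0.21 ± 0.0813 (edgeR adjusted p = 0.0282), a call lost in 3 of 9 fits that left out 1 library (without tKO 9, WT 1 or WT 3) and in DESeq2, and it did not pass in dKO against WT at 0.19 ± 0.0820 (edgeR adjusted p = 0.0576). Cps1 had 102, 92.4 and 88.1 FPKM in tKO, 97.8, 94.6 and 85.1 FPKM in dKO, and 90.7, 95.8 and 100.6 FPKM in WT. All 3 groups overlapped, and the 95% interval of the log2 fold change was −0.16 to 0.06 in tKO against WT and −0.17 to 0.06 in dKO against WT. Without tKO 7, Cps1 passed as lower in tKO than in WT, at −0.12 (edgeR adjusted p = 0.0309).

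The cytosolic steps moved unequally. Asl, the argininosuccinate lyase gene, had 53.0, 55.5 and 49.4 FPKM in tKO, 70.8, 72.8 and 69.2 FPKM in dKO, and 74.5, 75.9 and 75.9 FPKM in WT. All tKO libraries lay far below both other groups, and dKO lay just below WT. The log2 fold change was −0.55 ± 0.0514 in tKO against WT and −0.45 ± 0.0517 in tKO against dKO (edgeR adjusted p = 1.28e-15 and 9.47e-12), and −0.09 ± 0.0497 in dKO against WT (edgeR adjusted p = 0.122). Ass1, whose product acts 1 step before, had 635, 696 and 648 FPKM in tKO, 635, 618 and 590 FPKM in dKO, and 651, 737 and 714 FPKM in WT. The dKO libraries were all below WT, while tKO overlapped both. It fell in dKO by −0.19 ± 0.0388 and in tKO by −0.12 ± 0.0387 against WT (edgeR adjusted p = 2.5e-05 and 0.0103), and the tKO call was lost without tKO 7, tKO 9, WT 2 or WT 3, in limma, and when libraries were scaled by their totals alone. Arg1 had 85.4, 82.2 and 69.0 FPKM in tKO, 89.2, 83.2 and 77.0 FPKM in dKO, and 76.2, 83.4 and 84.9 FPKM in WT. These ranges overlapped, with 95% intervals of the log2 fold change of −0.20 to 0.05 in tKO against WT and −0.10 to 0.15 in dKO against WT.

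Gls2, Hal and Sds were lower in tKO hepatocytes than in both other groups. Gls2 had 43.6, 40.4 and 37.8 FPKM in tKO, 61.2, 63.0 and 57.7 FPKM in dKO, and 61.0, 59.4 and 63.6 FPKM in WT. The tKO libraries stood apart, while dKO and WT overlapped. Its log2 fold change was −0.62 ± 0.0519 in tKO against WT and −0.60 ± 0.0519 in tKO against dKO (edgeR adjusted p = 4.19e-18 and 6.64e-17), the largest falls of the 10 genes. Gls2 shares exon sequence with Spryd4 on the other strand, which averaged 11.4 FPKM in tKO, 11.6 FPKM in dKO and 14.1 FPKM in WT. Hal had 10.3, 10.1 and 7.91 FPKM in tKO, 13.7, 12.4 and 10.8 FPKM in dKO, and 11.4, 11.9 and 13.2 FPKM in WT. All tKO libraries lay below the others, and its log2 fold change was −0.39 ± 0.0904 in tKO against WT and −0.41 ± 0.0901 in tKO against dKO (edgeR adjusted p = 0.000193 and 0.000207). Sds had 14.2, 14.8 and 11.3 FPKM in tKO, 16.9, 17.6 and 14.4 FPKM in dKO, and 17.02, 18.9 and 17.4 FPKM in WT. The tKO libraries lay below WT and overlapped dKO. The fall of Sds was −0.43 ± 0.109 in tKO against WT and −0.30 ± 0.111 in tKO against dKO (edgeR adjusted p = 0.000611 and 0.0291), the second lost without tKO 9, dKO 4 or dKO 5, in limma and in DESeq2. Sds overlaps Plbd2 on the other strand, which averaged 35.4 FPKM in tKO, 36.5 FPKM in dKO and 28.8 FPKM in WT.

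**Figure D3:**
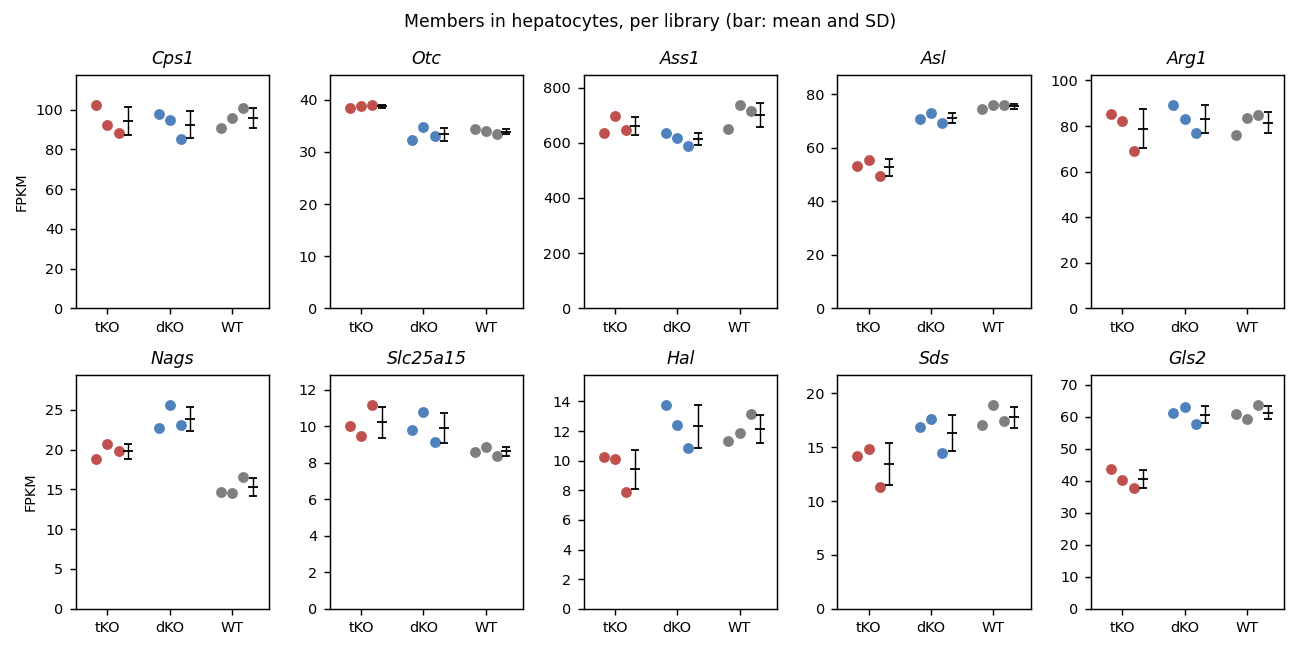
FPKM of the 10 genes in each hepatocyte library, with tKO, dKO and WT side by side in each panel and the mean and SD of each group beside its points. Asl, Gls2 and Hal are lowest in all tKO libraries, Nags is highest in all dKO libraries, and Cps1 and Arg1 overlap in the 3 groups.

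**Figure D4:**
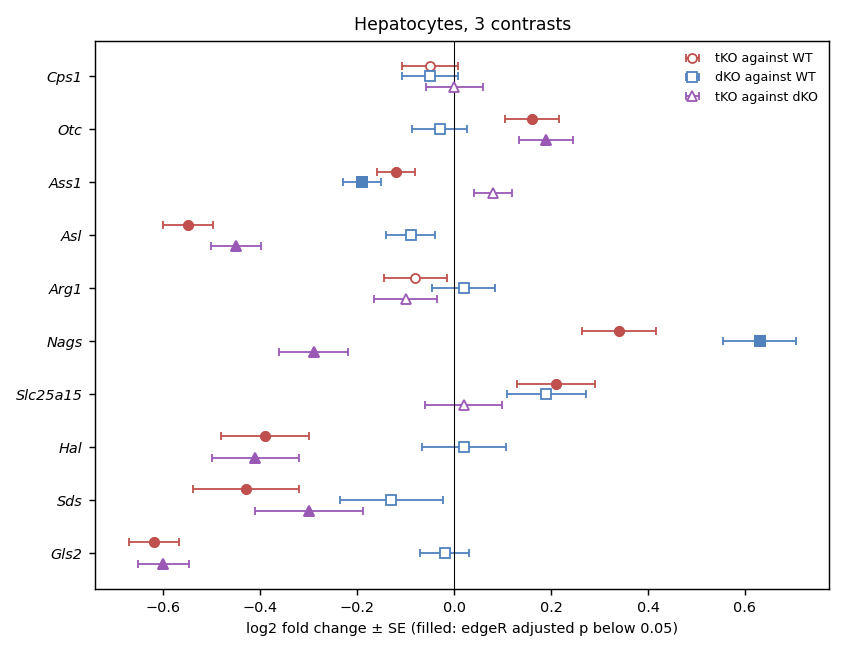
log2 fold change with SE bars in tKO against WT (circles), dKO against WT (squares) and tKO against dKO (triangles) hepatocytes, filled where the test was passed. Gls2 and Asl are at −0.62 and −0.55 in tKO against WT, and Nags is at 0.63 in dKO against WT.

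Related enzymes of the 10 genes were measured in the same hepatocyte libraries. Arg2, the mitochondrial arginase gene, had 8.63, 9.57 and 8.84 FPKM in tKO, 7.59, 6.85 and 10.4 FPKM in dKO, and 1.61, 1.03 and 0.640 FPKM in WT. Both knockout groups lay well above WT and overlapped each other, whereas Arg1 did not pass in either contrast. The log2 fold change of Arg2 was 3.00 ± 0.212 in tKO and 2.90 ± 0.216 in dKO against WT (edgeR adjusted p = 2.12e-21 and 3.73e-20), and both calls stood with the liver dispersion (edgeR adjusted p = 3.69e-18 and 5.69e-17). Arg2 shares exon sequence with Vti1b on the other strand, which averaged 29.8 FPKM in tKO, 24.9 FPKM in dKO and 24.9 FPKM in WT. In liver Arg2 averaged 0.989 ± 0.427 TPM in SMSrKO and 1.09 ± 0.345 TPM in WT and did not pass (edgeR adjusted p = 0.953). Cad, which makes carbamoyl phosphate for pyrimidines in the cytosol, fell in both knockouts, with log2 fold changes of −0.24 ± 0.0507 in tKO and −0.36 ± 0.0515 in dKO against WT hepatocytes (edgeR adjusted p = 3.49e-05 and 9.2e-09). Sdsl, a relative of Sds, averaged 3.19 ± 0.169 FPKM in tKO, 4.20 ± 0.899 FPKM in dKO and 2.58 ± 0.406 FPKM in WT, and rose in dKO against WT (edgeR adjusted p = 0.0068, 0.0676 without dKO 4 and 0.0566 in DESeq2), while the other contrasts did not pass. With the liver dispersion neither Cad nor Sdsl was called. Slc25a2, a second ornithine carrier gene, was listed for only 3 of the 9 hepatocyte libraries, none of them dKO, and was set to 0 in the others. It had 1 count in all tKO libraries together and 3 in WT, and reached at most 0.0800 FPKM in tKO and 0.170 FPKM in WT.

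**Figure D5:**
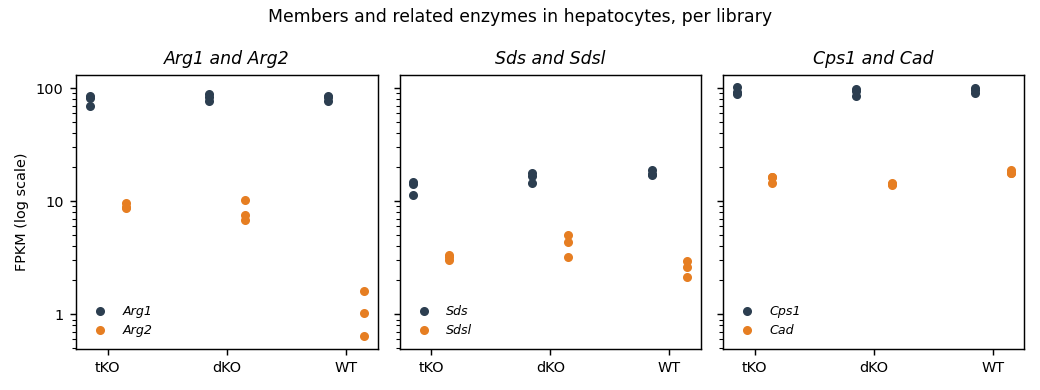
FPKM on a log axis of Arg1, Sds and Cps1 (dark) beside Arg2, Sdsl and Cad (orange) in each hepatocyte library. Arg2 lies between 6.85 and 10.4 FPKM in the tKO and dKO libraries and between 0.640 and 1.61 FPKM in WT, while Arg1 lies between 69.0 and 89.2 FPKM throughout.

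Genes that feed the cycle and use its arginine were called in both directions in hepatocytes. Their counts stand beside 25.6% of all genes called higher and 21.8% lower in tKO against WT, and 24% higher and 20% lower in dKO against WT. Those with the liver dispersion stand beside 877 higher and 344 lower of 11471 genes in tKO, and 869 and 186 in dKO. Of 17 tested genes for nitrogen supply and mitochondrial exchange, 3 rose and 7 fell in tKO against WT, and 2 rose and 5 fell in dKO against WT. With the liver dispersion, 0 were higher and 1 lower in tKO, and 0 were called in dKO. Glud1, whose product releases ammonia from glutamate, fell to 373 ± 13.1 CPM in tKO and 474 ± 14.4 CPM in dKO, against 668 ± 13.5 CPM in WT (edgeR adjusted p = 3.94e-33 and 8.53e-20, and 0.00663 and 0.269 with the liver dispersion). Of 16 tested genes for histidine, serine, glycine and threonine breakdown, 2 rose and 8 fell in tKO, and 4 rose and 7 fell in dKO against WT, where the liver dispersion left 1 higher and 1 lower in tKO, and 0 higher and 1 lower in dKO. Gldc, of the glycine cleavage system, fell to 15.7 ± 1.92 CPM in tKO and 19.6 ± 0.996 CPM in dKO, against 33 ± 1.17 CPM in WT. Of 17 tested amino acid transporters, 10 rose and 5 fell in tKO, and 9 rose and 5 fell in dKO against WT, where the liver dispersion left 3 higher and 2 lower in tKO, and 3 higher and 0 lower in dKO. Slc7a2, a carrier of arginine and other cationic amino acids, rose to 237 ± 12.4 CPM in tKO and 253 ± 8.86 CPM in dKO, against 111 ± 4.65 CPM in WT. Of 15 tested genes for arginine use (nitric oxide and polyamines), 4 rose and 6 fell in tKO, and 5 rose and 4 fell in dKO against WT. The liver dispersion left 2 higher and 0 lower in tKO, and 3 higher and 0 lower in dKO. Nos2, which makes nitric oxide from arginine, had 29.0 ± 1.3 CPM in tKO, 34.7 ± 5.16 CPM in dKO and 0.506 ± 0.223 CPM in WT. Both genes passed with the liver dispersion too, at edgeR adjusted p of 0.000141 and 2.35e-05 for Slc7a2 and of 6.94e-51 and 3.34e-55 for Nos2 in tKO and dKO.

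Regulators of amino acid breakdown and markers of other cells were measured in the same hepatocyte libraries. Of 18 tested regulators, 7 rose and 5 fell in tKO, and 7 rose and 6 fell in dKO against WT, beside the same shares of all genes. With the liver dispersion, 2 were higher and 0 lower in tKO, and 3 were higher and 0 lower in dKO. Of all 11471 genes, 877 were then higher and 344 lower in tKO, and 869 and 186 in dKO. Cebpd, a C/EBP factor gene, had 72.8 ± 6.69 CPM in tKO, 145 ± 3.16 CPM in dKO and 51.4 ± 0.793 CPM in WT, and with the liver dispersion its call stood in dKO against WT but not in tKO against WT (edgeR adjusted p = 4.84e-08 and 0.237). Ppargc1a, a coactivator gene of the fasting response, had 7.55 ± 1.08 CPM in tKO, 9.95 ± 0.350 CPM in dKO and 3.44 ± 0.213 CPM in WT. Hepatocyte markers, 11 of 12 found, summed to 68807 to 71286 CPM in tKO, 75561 to 76684 CPM in dKO and 92989 to 93898 CPM in WT. Endothelial markers, 12 of 12 found, summed to 110 to 115 CPM in tKO, 189 to 208 CPM in dKO and 32.9 to 35.1 CPM in WT, where Vwf was at 0. Macrophage markers, 13 of 14 found, summed to 367 to 387 CPM in tKO, 323 to 341 CPM in dKO and 121 to 137 CPM in WT, where C1qc and Vsig4 were at 0. Stellate and fibroblast markers, 13 of 13 found, summed to 36.8 to 42.0 CPM in tKO, 60.0 to 65.7 CPM in dKO and 17.7 to 21.6 CPM in WT, where Acta2, Hand2, Lrat and Lum were at 0. The part of these cells in the values of Arg2, Nos2 and the 10 genes was not tested. Other periportal markers, 16 of 16 tested, divided into 7 higher and 7 lower in tKO and 6 higher and 6 lower in dKO against WT, and pericentral markers into 5 higher and 5 lower in tKO and 8 higher and 5 lower in dKO. With the liver dispersion, the periportal markers had 2 higher and 2 lower in tKO and 3 higher and 1 lower in dKO. The pericentral markers had 2 higher and 0 lower in tKO and 1 higher and 1 lower in dKO. Both lists stand beside the same counts of all genes with that dispersion.

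Profiles over libraries were compared as the root mean square difference of log2 CPM from the WT mean. Over the 8 liver libraries, the nearest of 9730 genes to Cps1 was Ass1, and the nearest to Ass1 was Cps1, at 0.136. The nearest to Gls2 was Hal, at 0.202, and the nearest to Sds was the tyrosine aminotransferase gene Tat, at 0.225. The nearest to Arg1 was Klf15, at 0.088. Over the 9 hepatocyte libraries, with 9300 genes compared, Cps1 was the second nearest to Arg1, at 0.068, after Akr1d1, at 0.060. Ftcd, of the histidine pathway, was the second nearest to Hal, at 0.087, after Hadh, at 0.082. Egln1 was among the 2 nearest to both Asl and Gls2, at 0.055 and 0.064. These measures describe the profiles, and all libraries of an experiment share their preparation.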

How the data were processed

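RNA was sequenced in 8 liver and 9 hepatocyte libraries. For liver, the authors deposited whole-number counts per Ensembl gene and a TPM table, which recomputing from counts and exon lengths matched within 5.00e-05. For hepatocytes, the authors deposited expected counts, of which 6.25% were not whole and which were rounded, and FPKM values. A gene missing from a hepatocyte file was set to 0. Per the submitters' processing notes, the build was GRCm38 and the tools included STAR 2.5.2b and Bowtie2 2.2.5, with Trimmomatic 0.36 and DESeq2 1.30.1. No source used here gives the counting tool or strand setting.

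The test was the robust quasi-likelihood test of edgeR 4.0.16 in R 4.3.3, after TMM scaling and a filter on low counts (filterByExpr, at least 10). Liver formed 1 fit and the 9 hepatocyte libraries another, and Benjamini-Hochberg adjustment covered every gene tested, with calls at 0.05. SE is the fold change over the square root of F, and 95% intervals are 1.96 SE. CPM of single genes is TMM-scaled, and marker sums are per library total. Alternatives were DESeq2 1.42.0, limma 3.58.1 on log2(TPM or FPKM + 1) and + 0.1, other scalings, no filter, the liver dispersion for hepatocytes (likelihood ratio test), fits of 2 groups and leaving out each library. The liver dispersion was the common value of the liver fit, WT 1 included, applied to every gene. Recovery was measured on data simulated with the same dispersion for every gene and no outlying library. For SMSrKO against WT liver (15820 genes), the test recovered 26.9%, 88.1% and 100% of genes changed 1.5-, 2- and 4-fold. For dKO against WT hepatocytes (11471 genes), it recovered 86.6%, 91% and 98.5%. False calls were 10 of 153 in liver and 11 of 195 in hepatocytes. These shares do not carry over to genes with a wider spread, such as Cps1 and Sds in WT liver (coefficient of variation 56.7% and 94.2%).

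The 10 genes, lists and tests were chosen with earlier results of these data known. Named genes were the 10 genes, 5 related enzymes, the targeted genes, up to 3 called genes with the smallest p per list, and the 2 nearest profiles of each gene, of which a selection is printed, and 1 related enzyme is not reported here. Other steps ran in Python 3.11.15 (pandas 2.3.3, numpy 2.4.6), with figures from matplotlib 3.10.9.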

Additional observations from a re-analysis of the deposited data

Results flagged for a closer look

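In liver, 7 of 20 sets of 4 libraries (10 genes in 2 groups) held a library far from the others, by Dixon's ratio of gap to range, which chance alone gives in about 1 in 20. Arg1 and Sds had SMSrKO 6 far above the other SMSrKO libraries, at ratios of 0.863 and 0.860. WT 1 lay far above the other WT libraries in Cps1 (0.940), Ass1 (0.861), Arg1 (0.841), Slc25a15 (0.898) and Sds (0.932). The sets share libraries and are not independent.

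The log2 fold changes of Hal and Gls2 had opposite signs in the 2 experiments. Neither gene passed in SMSrKO against WT liver (edgeR adjusted p = 0.377 for Hal and 0.321 for Gls2), where the groups overlapped, and both were lower in tKO than in dKO hepatocytes. Every SMSrKO liver library lay above the WT mean, and every tKO hepatocyte library lay below the dKO mean. The log2 fold changes (SMSrKO against WT, minus tKO against dKO) differed by 1.02 for Hal and by 1.36 for Gls2. The difference was not tested, since tissue, diet and library preparation differ between the experiments.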

How the results depend on the processing

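No paired analysis was possible because the groups compared share no replicate numbers. Leaving out 1 library gave 0 to 3 genes higher in SMSrKO liver, 3 without WT 1, and 0 to 0 lower. It gave 1 to 3 higher in tKO against WT hepatocytes, 1 without WT 3, and 4 to 5 lower. It gave 1 to 2 higher in dKO against WT, 2 without dKO 6, and 1 to 1 lower. It gave 1 to 1 higher in tKO against dKO and 4 to 5 lower. With the liver dispersion, the counts were 0 higher and 0 lower in each hepatocyte contrast. Fitting only dKO and WT gave 2 higher, adding Slc25a15, and scaling by library totals gave 2 higher in tKO against dKO, adding Ass1.

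The sign of a log2 fold change turned only for genes below the threshold. Over fits without 1 liver library, Otc ran between −0.02 and 0.18, Asl between −0.09 and 0.57, Slc25a15 between −0.20 and 0.49 and Sds between −0.69 and 0.67, with the last 3 highest without WT 1. Slc25a15 was also at 0.07 in limma with either pseudocount. Over fits without 1 hepatocyte library, Arg1 ran between −0.14 and 0.02 in tKO against WT. In dKO against WT, Cps1 ran between −0.09 and 0.00, Otc between −0.06 and 0.00, Arg1 between −0.03 and 0.08, Hal between −0.07 and 0.10 and Gls2 between −0.05 and 0.01. In tKO against dKO, Cps1 ran between −0.06 and 0.06 and Slc25a15 between −0.04 and 0.09, and Cps1 was at 0.00 with DESeq2 size factors. The cause was not tested. Over all genes DESeq2 called 221 higher and 233 lower of 29544 in liver, against 19 and 18 of 15820 in edgeR. Scaling by library totals gave 15 higher and 24 lower in liver, and 1971 higher and 1523 lower in tKO against dKO, against 1641 and 1741 with TMM scaling. Of the 10 genes the least counted was Sds in hepatocytes, at 119 or more counts per library.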

Other observations

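Other amino acid pathways in hepatocytes, tested in the same edgeR fits, were called in both directions, where edgeR called 25.6% of all genes higher and 21.8% lower in tKO against WT, and 24% higher and 20% lower in dKO against WT. These genes were listed with earlier results of these data known. Of 11 tested proline, ornithine and glutamine genes, 3 rose and 5 fell in tKO, and 4 rose and 3 fell in dKO against WT. Asns, the asparagine synthetase gene, rose to 98.0 ± 3.30 CPM in tKO and 61.1 ± 3.90 CPM in dKO, against 47.8 ± 1.37 CPM in WT (SD, n = 3 each). Of 12 tested aromatic and tryptophan genes, 2 rose and 5 fell in tKO, and 1 rose and 3 fell in dKO against WT. Of 15 tested sulfur, lysine and branched chain genes, 7 rose and 5 fell in tKO, and 5 rose and 6 fell in dKO against WT. Ahcy, the adenosylhomocysteinase gene, fell to 667 ± 9.54 CPM in tKO, against 1146 ± 11.7 CPM in WT. Cdo1, the cysteine dioxygenase gene, rose to 296 ± 14.9 CPM in tKO and 360 ± 18.9 CPM in dKO, against 231 ± 3.25 CPM in WT. With the liver dispersion, the 3 lists held 1, 0 and 1 higher genes and 0, 0 and 1 lower genes in tKO against WT. In dKO against WT they held 0 called genes. Of all 11471 genes, 877 were then higher and 344 lower in tKO, and 869 and 186 in dKO. The edgeR adjusted p with that dispersion in tKO against WT was 0.00047 for Asns, 0.014 for Ahcy and 0.524 for Cdo1, and in dKO against WT it was 0.613 for Asns and 0.0811 for Cdo1.

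In liver, edgeR called 0 genes of these 3 lists and 0 of 16 other periportal marker genes. At an unadjusted edgeR p under 0.05 there were 4 proline, ornithine and glutamine genes and 2 aromatic and tryptophan genes. There were also 5 sulfur, lysine and branched chain genes and 2 periportal marker genes. Over all genes, 2075 of 15820 were under this value. DESeq2 called 1 lower in the first of these lists, 0 in the second and 2 higher in the third. Among the periportal markers it called 1 higher and 1 lower, and over all genes 221 higher and 233 lower of 29544. Cth, of cysteine synthesis, had 396 ± 74.2 CPM in SMSrKO and 175 ± 51.2 CPM in WT (SD, n = 4 each, edgeR adjusted p = 0.068). G6pc, of glucose release, had 185 ± 69.0 CPM in SMSrKO and 513 ± 121 CPM in WT (edgeR adjusted p = 0.093).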
